A study of Homo sapiens with 12 samples.

Results

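IFNγ, the type II interferon, was given on its own to HT1080 cells and its effect was read across every expressed gene. HT1080 is an established human fibrosarcoma line, a tumour of connective tissue origin. The comparison took 6 of the series' 12 RNA sequencing libraries: 3 labelled IFNG, from cells given IFNγ at 10 ng/ml, and 3 labelled Untreated. The other 6 libraries came from cells given 20 Gy of radiation with or without the same IFNγ dose, and all cells were harvested at 24 h. No genotype, allele or further agent is given for any group, and the 1 cell line limits the groups as a model of fibrosarcoma. Of 19293 genes in the deposited table, 12160 passed the filter on low counts and all of these were tested.

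IFNγ binds the receptor chains IFNGR1 and IFNGR2, whose kinases JAK1 and JAK2 phosphorylate STAT proteins. STAT dimers bind GAS elements in promoters, and the induced factor IRF1 binds ISRE elements in a later wave of genes. In tumour and connective tissue cells the cytokine is known for raising MHC class I and II antigen presentation, for antiviral enzymes, and for slowing the production of extracellular matrix.

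Total counts ran from 9762772 to 11010656 in the 6 libraries, and a tested gene had a median of 321 counts per library. Levels are given as CPM, counts per 1e6 of the library total after TMM scaling, which sets libraries on a common scale from genes that change little. CPM is not per length, so levels are compared between groups and not between genes. The threshold for calling a gene was an adjusted p of 0.05 in edgeR's quasi-likelihood test. The labels do not say that replicates were separate cultures, and the spread that the p-values rest on may then be technical. In bulk RNA, fewer cells of a type and less RNA per cell cannot be told apart.

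IFNγ raised 1829 genes and lowered 1715, which is 15.0% and 14.1% of those tested, or 29.1% in either direction. The 2 directions differed in the size of the change. Among the called genes, 310 rose at least 2-fold (2.55% of those tested) and 74 fell at least 2-fold (0.609%). No gene fell more than 8-fold and 2 fell between 4-fold and 8-fold, whereas 106 rose more than 8-fold and 62 rose between 4-fold and 8-fold. Most calls were small. Of the genes called higher, 1058 rose by less than 1.25-fold, as did 929 of those called lower in their direction. Between 1.25-fold and 2-fold the decreases were the more numerous, with 487 and 225 genes in the bands divided at 1.5-fold, against 303 and 158 increases. The 3 IFNγ libraries lay below all 3 untreated libraries for 1573 of the 1715 genes called lower and above them for 1738 of the 1829 called higher. Over all tested genes, called or not, 19.7% lay below and 19.8% above in this way.

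**Figure D1:**
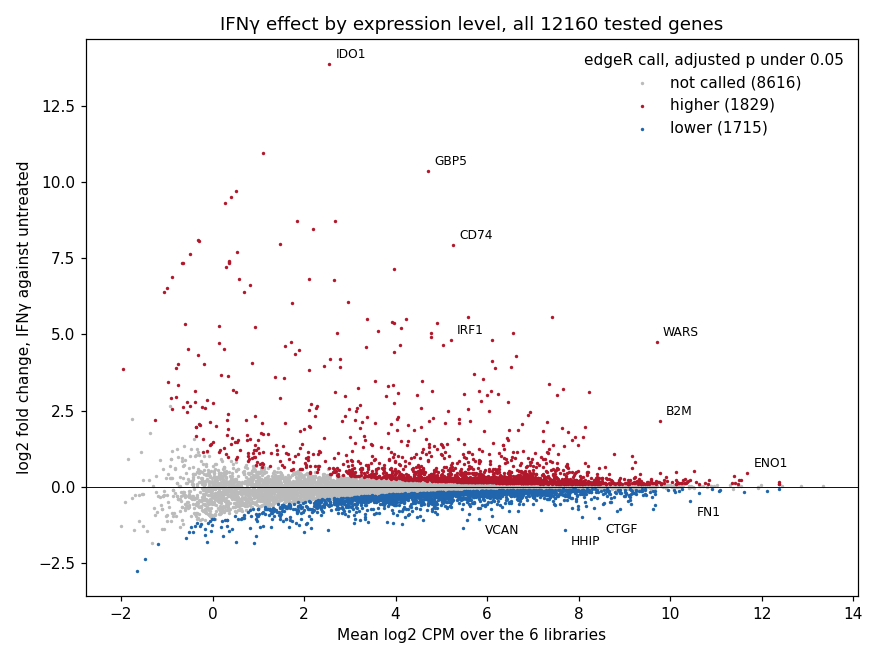
Each point is 1 of the 12160 tested genes, with its mean log2 CPM over the 6 libraries on the x axis and the log2 fold change of IFNγ against untreated cells on the y axis. The 1829 genes called higher (red) reach past a log2 fold change of 10, while the 1715 called lower (blue) lie close under the line and go no lower than -2.75.

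The 310 genes raised at least 2-fold had a median of 2.92 CPM in untreated and 21.6 CPM in IFNγ-treated cells, and 102 of them were under 1 CPM without the cytokine. A gene this low entered the test mostly by being higher in other libraries, so the number is set in part by the filter. The 74 genes lowered at least 2-fold went from a median of 2.59 to 0.995 CPM, and 37 of them ended under 1 CPM. None of them reached 0 counts in all 3 IFNγ libraries, while 14 of the raised genes came from 0 counts in all 3 untreated ones. With the untreated group set to 3 counts, 13 of these 14 were still at least 8-fold higher and 1 was under 2-fold. Where the mean log2 CPM over the 6 libraries was 2 or more, 188 rose and 19 fell by 2-fold or more. The raised set took 0.615% ± 0.00536 of all counts in untreated and 3.15% ± 0.186 in IFNγ-treated libraries (SD, n = 3). The lowered set held 0.141% ± 0.00124 and 0.06% ± 0.00529. Both sets were chosen by their change in these same libraries, so the direction of these shares follows from the choice.

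The number of small decreases depended on the scaling. With library totals in place of TMM the called genes were 1227 higher and 2717 lower, so that 31.1% of calls were increases against 51.6% with TMM, and the median log2 fold change of all tested genes was -0.06 in place of -0.01. All 1715 genes called lower under TMM stayed called lower, and 0 genes were called in opposite directions. All 74 genes lowered at least 2-fold were called under both scalings. Library totals moved the fold changes down by a nearly even step, so decreases could hardly lose their call and keeping it is no test. Increases could lose theirs, and 1227 of the 1829 called higher under TMM stayed called higher. Of the 310 raised at least 2-fold, 309 stayed called higher.

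At a mean log2 CPM of 2 or more and with groups that did not overlap, the 24 genes that fell most, by 1.96-fold to 2.67-fold, included secreted and matrix proteins, cell surface receptors and enzymes of lipid and nucleotide signalling. HHIP, which binds and limits Hedgehog ligands, stood at 324, 350 and 350 CPM in the 3 untreated and 113, 125 and 145 CPM in the 3 IFNγ libraries. Every IFNγ library was well under the lowest untreated one. The log2 fold change was -1.42 ± 0.09 (SE), with an edgeR adjusted p of 2.2e-06. CTGF, a matricellular growth factor and a target of the YAP and TEAD regulators, stood at 504, 491 and 500 CPM and then at 224, 259 and 256 CPM, which is a log2 fold change of -1.02 ± 0.04. VCAN, the large matrix proteoglycan versican, fell by 1.06 ± 0.06 on the log2 scale, from 75.3, 82.1 and 86.3 CPM to 35.1, 40.2 and 41.1 CPM. For both genes the gap between the groups was several times wider than the spread within either.

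COL1A1, the main chain of type I collagen, was low in this line, at 6.66, 6.12 and 5.58 CPM without IFNγ and 2.87, 3.36 and 1.71 CPM with it. All 3 libraries fell below the untreated range, by a log2 fold change of -1.20 ± 0.19. ZNF469, a zinc finger gene mutated in a brittle connective tissue disorder of the cornea, went from 5.99 ± 1.03 to 2.57 ± 0.38 CPM (SD, n = 3). Further secreted proteins were ANOS1, a secreted adhesion protein, with 35.3 ± 2.04 and 16.6 ± 1.15 CPM, and LRRC17, a leucine-rich repeat protein, with 9.20 ± 0.673 and 3.44 ± 1.01 CPM. ITGA10, a collagen-binding integrin chain, went from 31 ± 2.87 to 15.7 ± 2.4 CPM.

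Genes of signalling followed. RGS4, which switches off G protein signals, stood at 376, 381 and 387 CPM and at 171, 193 and 210 CPM after IFNγ, so the groups were far apart although the treated libraries spread more. Its log2 fold change was -0.99 ± 0.07. S1PR1, a receptor for sphingosine 1-phosphate, fell by 1.17 ± 0.14 on the log2 scale, and CERK, the kinase that makes ceramide 1-phosphate, by 0.97 ± 0.05. PDE5A, the phosphodiesterase that breaks down cyclic GMP, fell by 1.17 ± 0.10, and the log2 fold change of the adenylate kinase AK5 was -1.36 ± 0.19. ROR1, a receptor for Wnt5a, fell by 1.07 ± 0.18 from 6.2 ± 0.098 to 2.95 ± 0.365 CPM. The neutrophil attractant CXCL8 and the cytokine IL24 fell by 1.10 ± 0.08 and 1.08 ± 0.12, against the direction of the interferon-induced chemokines.

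HMOX1, the stress-induced enzyme that degrades heme, stood at 29.4, 26.9 and 24.6 CPM untreated and at 10.8, 11.5 and 12 CPM with IFNγ. The treated libraries were tightly grouped, and the log2 fold change was -1.24 ± 0.09. RFLNB, a partner of the actin crosslinker filamin, fell by 1.34 ± 0.06. OSBP2, an oxysterol-binding protein, and SLC4A8, a bicarbonate transporter, both fell by 0.99 (SE 0.09 and 0.12). The remaining genes of the 24 were VAT1L, LONRF2, ZNF778 and EPB41L4B. All 24 kept their call in every alternative run on them.

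**Figure D2:**
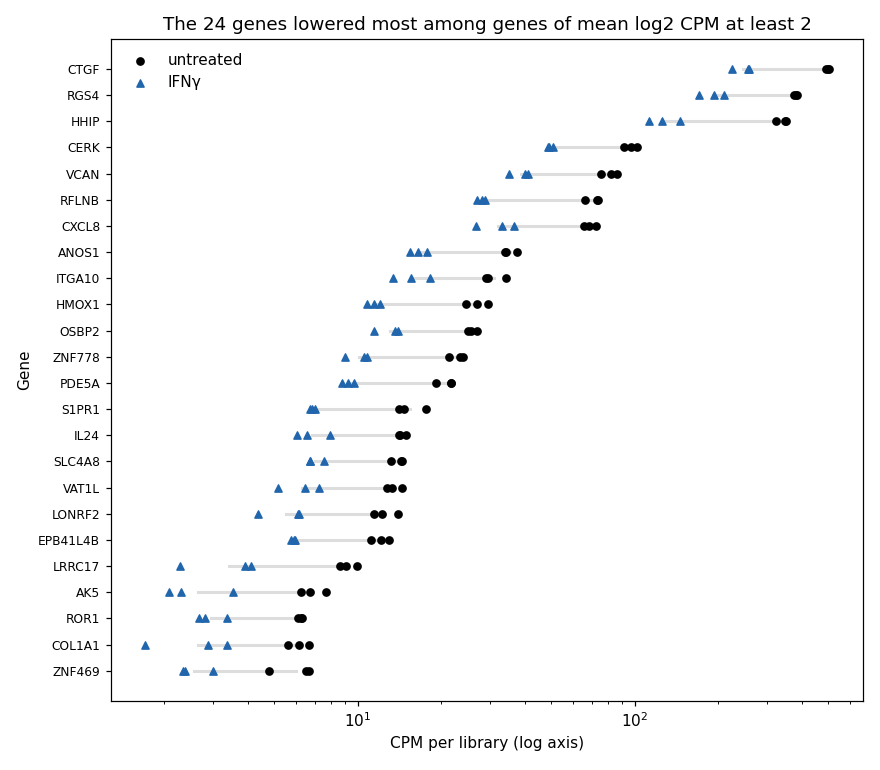
Each row is 1 of the 24 genes, ordered by untreated level, with CPM in each library on a log axis: black circles are the 3 untreated and blue triangles the 3 IFNγ libraries, and the grey bar joins the group means. The groups do not overlap for any of the genes, which the choice required, and mean untreated levels run from 5.99 CPM (ZNF469) to 498 CPM (CTGF).

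Counts of list members here and below are over those that passed the filter on low counts, with the number listed where it was larger. Each count is to be read against the whole tested set, of which 15.0% rose and 14.1% fell. A list whose shares are close to these is not set apart by its counts. A gene near silence in untreated cells passed only if it was high in other libraries, so counts and medians of the interferon lists describe the genes that passed and support nothing about all members. Of 31 tested matrix glycoproteins and proteoglycans (43 listed) 18 fell and 4 rose, with a median log2 fold change of -0.23 against -0.01 over all genes tested. FN1, the cell-binding glycoprotein fibronectin, stood at 1572, 1651 and 1673 CPM and then at 1127, 1204 and 1195 CPM. Its highest IFNγ library was far under its lowest untreated one, and the log2 fold change was -0.47 ± 0.03. THBS1, which encodes thrombospondin 1, went from 1023 ± 39.7 to 615 ± 17 CPM, and NID2, a basement membrane protein, had a log2 fold change of -0.84 ± 0.21. The exceptions were named genes too. TNC, the matrix protein tenascin C, rose from 78.2, 82.6 and 75.7 CPM to 302, 262 and 281 CPM, a log2 fold change of 1.83 ± 0.07, and the heparan sulfate proteoglycan GPC6 and the laminin chain LAMA1 rose by 0.46 ± 0.07 and 0.27 ± 0.06.

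Of 20 tested collagen chains (26 listed) 7 fell and 1 rose (median -0.16). Besides COL1A1, the basement membrane chain COL4A5 fell by 0.41 ± 0.08 and COL12A1, a chain that coats collagen fibrils, by 0.34 ± 0.05. The 1 increase, COL6A2 at 0.17 ± 0.05, was not called with library totals or without untreated replicate 2. COL6A3, another chain of the same collagen VI, fell from 3304 ± 40.6 to 2948 ± 34.6 CPM. Genes that fold and crosslink collagen went both ways, with 6 lower and 5 higher of 20 tested of 21 (median -0.04). LOXL3 (-0.47 ± 0.05) and LOXL2 (-0.27 ± 0.03), which crosslink collagen, and the procollagen protease BMP1 (-0.25 ± 0.06) fell. The lysyl hydroxylase PLOD2 rose from 470 ± 35.7 to 713 ± 16.8 CPM, the crosslinking transglutaminase TGM2 rose by 0.43 ± 0.07, and the prolyl hydroxylase subunit P4HA1 rose by 0.29 ± 0.04.

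Of 25 tested metalloproteinases, plasminogen activators and inhibitors (37 listed) 13 fell and 2 rose, and the median of -0.34 was the lowest among the 52 lists. ADAM19 stood at 338, 331 and 324 CPM and then at 189, 205 and 198 CPM, with no overlap and a log2 fold change of -0.75 ± 0.04. ADAM12, a related membrane protease, fell by 1.81 ± 0.40 at a low level, from 2.31 ± 0.615 to 0.646 ± 0.177 CPM. The collagenase MMP1 fell by 0.72 ± 0.14. PLAU, the urokinase plasminogen activator, went from 688 ± 4.3 to 464 ± 8.3 CPM. TIMP1, an inhibitor of these proteases, rose by 0.20 ± 0.05, as did ADAM15 by 0.18 ± 0.05, a call lost without untreated replicate 3.

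Of 30 tested contractile and actin genes (33 listed) 21 fell and 3 rose (median -0.13), and with library totals 24 fell and 3 rose. TPM1, a tropomyosin of actin filaments, stood at 370, 344 and 360 CPM and then at 220, 238 and 236 CPM, a log2 fold change of -0.63 ± 0.03. The muscle filamin FLNC fell by 0.57 ± 0.05 and the myosin light chain kinase MYLK by 0.45 ± 0.03. TAGLN2 and TPM3, of the transgelin and tropomyosin families, rose by 0.22 ± 0.03 and 0.15 ± 0.03. Of 16 tested integrin chains (20 listed) 6 fell and 2 rose (median -0.20). Besides ITGA10, ITGB8 (-0.95 ± 0.24) and ITGB3 (-0.87 ± 0.10) fell, while the laminin-binding chains ITGA6 and ITGA3 rose, ITGA6 from 1246 ± 60.3 to 1764 ± 43.1 CPM and ITGA3 by 0.14 ± 0.03. Among 18 tested cadherins and protocadherins (28 listed) 8 fell, led by PCDH1 (-0.92 ± 0.09) and CELSR2 (-0.75 ± 0.10), and 5 rose (median -0.17). Those that rose were led by PCDH17 and PCDH7, which stayed under 3 CPM, and the increases were 3 with library totals, with DESeq2, without untreated replicate 3 or without IFNγ replicate 3.

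Among 31 genes listed as YAP and TEAD targets or partners 15 fell and 5 rose (median -0.12). These regulators read cell tension and attachment. CTGF led the decreases, followed by INHBA (-0.64 ± 0.07), a subunit of activin, and the ligand TGFB2 (-0.57 ± 0.08). The regulators TEAD4 (0.36 ± 0.06) and LATS2 (0.23 ± 0.06) rose, and the increases numbered 3 without untreated replicate 1, untreated replicate 3, IFNγ replicate 1 or IFNγ replicate 2. In the TGF-beta family and SMAD list 17 of 39 tested (42 listed) fell and 7 rose (median -0.11). NOG, which blocks BMP ligands, fell from 13.3 ± 1.79 to 7.25 ± 0.159 CPM, and the activin-binding FSTL3 fell by 0.79 ± 0.09. LTBP1, which holds latent TGF-beta in the matrix, rose from 124, 132 and 130 CPM to 232, 216 and 231 CPM, a log2 fold change of 0.81 ± 0.04, and the inhibitory SMAD6 rose by 0.51 ± 0.14.

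Wnt ligands and receptors fell more than they rose, with 11 of 30 tested (39 listed) lower and 3 higher (median -0.25). WNT5A, a ligand that signals without beta-catenin, stood at 67.6, 63.9 and 65.5 CPM and at 31.9, 38 and 36.7 CPM with IFNγ, a log2 fold change of -0.88 ± 0.06. WNT5B fell by 1.37 ± 0.31 to under 1 CPM, and their receptor ROR1 fell as given above. The receptor FZD5 went the other way, from 11.3, 9.5 and 10.2 CPM to 28.9, 30.1 and 27.5 CPM, a log2 fold change of 1.49 ± 0.10, and FZD1 (0.38 ± 0.07) and the secreted DKK3 (0.23 ± 0.06) rose. In the Hedgehog list 4 of 12 tested (18 listed) fell and 2 rose (median -0.25), and with library totals 6 fell and 1 rose. SMO, the membrane protein that carries the signal, fell by 0.65 ± 0.11 beside HHIP, and GLI3, which is often a repressor, rose by 0.29 ± 0.08. PTCH1, the receptor and a target of the pathway, had a log2 fold change of -0.58 ± 0.28 that was not called, and GLI1 did not pass the filter on low counts.

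Growth factor ligands and receptor kinases had 12 of 33 tested members (50 listed) lower and 3 higher (median -0.13). The receptor KIT, at 1.41 ± 0.186 CPM before and 0.387 ± 0.251 after, and its ligand KITLG, at 8.73 ± 0.269 and 4.8 ± 0.831 CPM, both fell. VEGFC, a growth factor of lymphatic vessels, rose from 108, 105 and 104 CPM to 265, 239 and 249 CPM (log2 fold change 1.25 ± 0.04), and MET, the receptor for hepatocyte growth factor, rose from 457 ± 8.94 to 796 ± 5.79 CPM. The lowest treated library of each was far above its highest untreated one. Among RAS-MAPK feedback and early response genes 11 of 33 tested (39 listed) fell and 7 rose (median -0.11), 7 fell without untreated replicate 2, and with library totals 16 fell and 5 rose. The inhibitor SPRY2 fell by 0.71 ± 0.06 and the EGFR ligand HBEGF by 0.57 ± 0.05, while the inhibitors SPRY4 (0.53 ± 0.05) and DUSP10 (0.38 ± 0.06) and the factor JUNB (0.37 ± 0.08) rose.

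Axon guidance families, which also act in cell migration, had 14 of 40 tested (48 listed) lower and 4 higher (median -0.16). The semaphorins SEMA3B (-1.07 ± 0.23) and SEMA6B (-0.89 ± 0.09) and the ephrin receptor EPHB1 (-0.83 ± 0.17) fell. PLXNC1 (0.94 ± 0.19) and SEMA3A (0.46 ± 0.09) rose, and the increases numbered 2 with library totals, with DESeq2, without untreated replicate 2 or without IFNγ replicate 3. Sialyltransferases and ganglioside enzymes, which build sialic acid sugars on lipids and proteins, had 12 of 22 tested (29 listed) lower and 1 higher (median -0.21), but 6 lower with DESeq2 and 7 without IFNγ replicate 2. ST6GAL2 stood at 3.1, 4.24 and 2.13 CPM and then at 0.89, 0.747 and 1 CPM, a log2 fold change of -1.84 ± 0.33, and the GD3 synthase gene ST8SIA1 had one of -1.26 ± 0.22. HOX genes were mostly not called, with 4 of 27 tested (39 listed) lower and 1 higher (median -0.14), and 8 lower with library totals. With TMM their share of decreases was close to the 14.1% of the whole tested set.

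**Figure D3:**
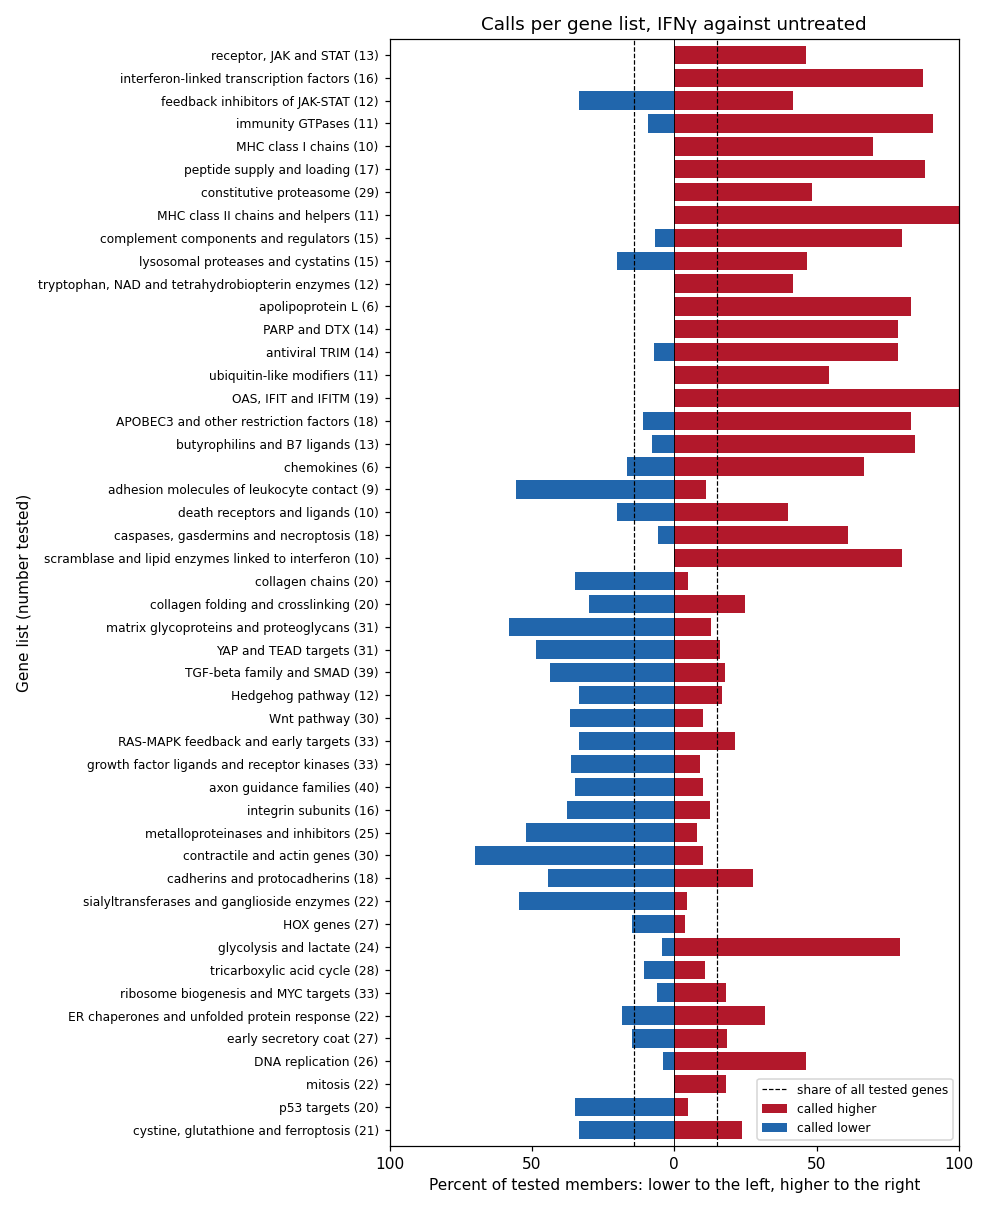
Bars give the percent of each list's tested members called lower (blue, left) or higher (red, right) by IFNγ, with the number tested in brackets and dashed lines at the 14.1% and 15.0% of all tested genes. Lists of interferon effectors lie to the right, lists of matrix, cytoskeleton and growth signalling lie mostly to the left, and glycolysis lies to the right with 19 of 24 higher. The lists were chosen with earlier results of these data known, so this division is set in part by the choice of lists.

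Genes were also named by the difference in mean CPM, in which long genes count for more, so the order is of reads and not of transcripts. The largest losses of CPM were in FN1, in the cytoplasmic actin ACTG1, which went from 4661 ± 233 to 4251 ± 96.6 CPM, and in THBS1. COL6A3, the matrix protein SPARC (1009 ± 40.5 to 663 ± 17.8 CPM) and ACTB came next. The ACTB change of -0.09 ± 0.03 was lost without untreated replicate 1. ODC1, the first enzyme of polyamine synthesis, stood at 613, 596 and 599 CPM and then at 344, 353 and 350 CPM, a log2 fold change of -0.79 ± 0.03. KRT81, a hair keratin, fell from 620 ± 56.5 to 373 ± 14.8 CPM. By CPM gained, WARS, the tryptophanyl-tRNA synthetase, came first with 161 ± 2.1 CPM before and 4354 ± 334 CPM after, ahead of B2M and GBP1. The list also held ENO1 and GAPDH of glycolysis and the reductase DHRS2, which rose from 2400 ± 81.8 to 3062 ± 101 CPM.

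Glycolysis rose nearly throughout. Of 24 genes of glucose uptake, glycolysis and lactate 19 were called higher and 1 lower, with a median log2 fold change of 0.24, and with library totals 16 were higher and 2 lower (median 0.18). ENO1, the enolase, stood at 2926, 2752 and 2806 CPM without IFNγ and at 4010, 3849 and 3767 CPM with it. The groups were well apart, with a log2 fold change of 0.45 ± 0.03 and an edgeR adjusted p of 7.7e-22. PFKFB4, which makes the activator of phosphofructokinase, went from 29.3 ± 2.39 to 44.5 ± 0.719 CPM, the glucose transporter SLC2A3 from 61.5 ± 2.93 to 92.6 ± 2.46 CPM, and the aldolase ALDOC from 39.3 ± 1.62 to 58.7 ± 4.1 CPM. GAPDH, often used as a reference gene, rose by 0.16 ± 0.03. The 1 decrease, in the transporter SLC2A1 (-0.10 ± 0.04), was not called in 10 of the 18 alternatives, DESeq2 and the fit of the 6 libraries alone among them.

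**Figure D4:**
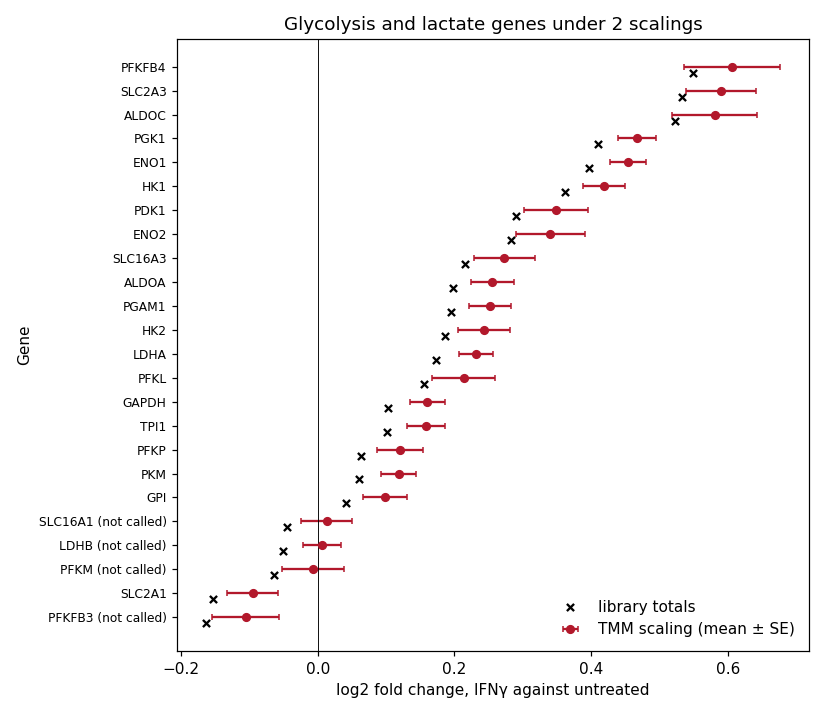
Points give the log2 fold change of each glycolysis and lactate gene in IFNγ against untreated cells with TMM scaling (red, bars are the SE) and with library totals (black crosses). Crosses lie to the left of the points by the same small step, and 19 of the 24 genes were called higher with TMM.

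Neighbouring pathways of metabolism and biosynthesis had fewer calls. In the tricarboxylic acid cycle list 3 of 28 tested (29 listed) rose and 3 fell (median 0.02), with ME2 (0.40 ± 0.04) and ACO1 (0.26 ± 0.04) higher and PC (-0.45 ± 0.10) and ME1 (-0.19 ± 0.05) lower. Ribosome biogenesis genes and MYC targets had 6 of 33 higher and 2 lower (median 0.05), but 1 higher with library totals, where the median turned to -0.00281, 10 with all genes of at least 1 count and 3 without IFNγ replicate 1. UTP20 (0.19 ± 0.04) and MYBBP1A (-0.16 ± 0.04) were the largest of the 2 directions. Endoplasmic reticulum chaperones and the unfolded protein response had 7 of 22 higher, led by CALR (0.22 ± 0.03), HSP90B1 (0.22 ± 0.03) and PDIA6 (0.19 ± 0.03), and 4 lower, among them HERPUD1 (-0.29 ± 0.06). The median of 0.01 turned to -0.05 with library totals. Early secretory coat genes had 5 of 27 tested (28 listed) higher, such as COPG1 (0.20 ± 0.04), and 4 lower, such as KDELR3 (-0.37 ± 0.10). Their median of 0.04 also turned, to -0.01, and 3 rose with library totals. With TMM the shares of coat genes called were close to the 15.0% higher and 14.1% lower of the whole tested set. The share of increases among ribosome biogenesis genes and MYC targets was close to that 15.0% too.

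The cytokine's own pathway was present before treatment. The receptor chain IFNGR1 stood at 24.9, 27.1 and 26.2 CPM and then at 24.6, 22.5 and 23.4 CPM, and IFNGR2 had a log2 fold change of -0.07 ± 0.06. JAK1 had one of 0.07 ± 0.04, and none of these 3 was called, although IFNGR1 was called lower with library totals. In the list of receptor, JAK and STAT genes 6 of 13 rose and 0 fell (median 0.10), with 3 lower with library totals. STAT2 (2.48 ± 0.07) and STAT3 (1.11 ± 0.05), which serve other cytokines as well, and the kinase JAK2 (0.63 ± 0.12) rose. Of 16 tested interferon-linked transcription factors (19 listed) 14 rose and 0 fell (median 1.13), among them IRF1 (from 6.9 ± 0.0883 to 194 ± 23.2 CPM), BATF2 (1.45 ± 0.197 to 65.4 ± 5.04 CPM) and the MHC transactivators CIITA (5.05 ± 0.16) and NLRC5 (3.03 ± 0.08).

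Feedback inhibitors were divided. Of 12 tested (14 listed) 5 rose and 4 fell (median -0.06). SOCS1, the main brake on JAK kinases in this pathway, was low, at 0.938, 0.377 and 0.203 CPM before and 2.97, 1.31 and 2.91 CPM after. The log2 fold change was 2.18 ± 0.45 with no overlap, and it ran from 1.83 to 2.97 when 1 library was left out. SOCS3 (1.13 ± 0.08) and USP18 (2.65 ± 0.21), which restrains type I interferon signalling, rose. SOCS2, a brake on growth hormone signalling, went the other way, from 5.07, 5.18 and 5.58 CPM to 1.19, 3.17 and 2.51 CPM, a log2 fold change of -1.19 ± 0.22, and SOCS5 (-0.46 ± 0.05) and PIAS3 (-0.27 ± 0.06) fell.

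Every step of MHC class I presentation had raised genes, but the constitutive proteasome rose only in part. Of 10 tested class I chains (12 listed) 7 rose and 0 fell (median 2.47), from B2M, the light chain (413 ± 11 to 1848 ± 54.9 CPM), to HLA-B (12.8 ± 0.859 to 362 ± 32.8 CPM), HLA-F (4.19 ± 0.23) and HLA-E (3.20 ± 0.05). Reads of near-identical HLA genes may be divided between copies. Of 17 genes of peptide supply and loading 15 rose and 0 fell (median 1.93), with the transporter TAP1 (16.4 ± 1.06 to 536 ± 54.8 CPM) and the immunoproteasome subunits PSMB9 (4.92 ± 0.44 to 148 ± 7.54 CPM) and PSMB10 (3.13 ± 0.10). Of 29 constitutive proteasome genes 14 rose and 0 fell (median 0.08), and with library totals 12 rose and 2 fell. Subunits of the alpha ring led, with PSMA3 at 113, 118 and 123 CPM before and 215, 203 and 195 CPM after (0.79 ± 0.04), PSMA4 at 0.61 ± 0.03 and PSMA6 at 0.60 ± 0.04. Among the beta subunits that the immunoproteasome subunits replace, PSMB7 rose by 0.16 ± 0.04, while PSMB5 (0.08 ± 0.04) and PSMB6 (-0.01 ± 0.05) were not called, although PSMB5 was called higher, at 0.13, without IFNγ replicate 3.

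All 11 tested MHC class II chains and helpers (12 listed) rose, with a median of 7.16, or 5.21 with the 3 genes from 0 counts set to 3 untreated counts. CD74, the invariant chain, stood at 1.97, 3.2 and 1.93 CPM before and 624, 565 and 556 CPM after. HLA-DRA went from 1.21 ± 0.351 to 176 ± 9.53 CPM and HLA-DRB1 from 0.318 ± 0.137 to 37.5 ± 4.18 CPM. HLA-DMB had 3 counts in the untreated group, and its ratio of 285 has an exact 95% interval of 97 to 1380. Intervals and floors of this kind cover counting error only. Lysosomal proteases and cystatins had 7 of 15 tested (16 listed) higher and 3 lower (median 0.09): CTSS, which trims the invariant chain, rose from 0.318 ± 0.137 to 22 ± 4.11 CPM, IFI30, a lysosomal thiol reductase, rose by 5.05 ± 0.54 and CTSO by 1.92 ± 0.14, whereas CTSH (-0.61 ± 0.16) and CTSD (-0.14 ± 0.04) fell.

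Genes with 0 counts in all untreated libraries were named by their level after IFNγ. IDO1, which starts tryptophan breakdown, reached 240, 154 and 150 CPM, which is at least 1880-fold higher when the untreated group is set to 3 counts. The lower bound was at least 248-fold higher for APOL4, at least 106-fold higher for HLA-DOA, and for C4B at least 92.0-fold, CXCL9 at least 80.6-fold, CXCL10 at least 34.7-fold and HLA-DRB5 at least 33.4-fold. TEX29, a gene named for testis expression, was at least 24.9-fold higher, at 2.77, 1.96 and 2.51 CPM. C4B and the HLA genes have near-identical copies.

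Immunity GTPases had 10 of 11 tested (13 listed) higher and 1 lower (median 5.58, or 4.07 with the 1 gene from 0 counts at its bound), the lower being IRGQ (-0.23 ± 0.08), which was not called with DESeq2, without untreated replicate 2 or 3 or without IFNγ replicate 2. GBP1 rose from 24.8 ± 1.83 to 1190 ± 108 CPM, GBP2 from 6.8 ± 0.479 to 327 ± 17.6 CPM, GBP4 from 0.224 ± 0.142 to 101 ± 13.1 CPM and GBP5 from 0.691 ± 0.576 to 905 ± 152 CPM. The log2 fold change of GBP5 was 10.36, and it ran from 9.91 to 11.19 when 1 library was left out. All 19 OAS, IFIT and IFITM genes rose (median 2.59), 18 with library totals, with OAS2 (5.40 ± 0.55) and IFITM1 (5.39 ± 0.33) among them. IFI44L had 1 untreated count, and its ratio of 205 has an interval of 36.4 to 8150. RSAD2 was at least 20.2-fold higher.

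Restriction factors had 15 of 18 tested (20 listed) higher and 2 lower (median 1.51). BST2, which tethers virus particles, rose from 0.159 ± 0.106 to 61.3 ± 6.89 CPM. That is 8.47 on the log2 scale, and 8.21 to 9.13 when 1 library was left out. DDX60 and SAMHD1 rose by 3.54 ± 0.15 and 3.14 ± 0.17, while SERINC5 (-0.58 ± 0.08) and SERINC3 (-0.25 ± 0.04), which block virus entry, fell. Antiviral TRIM genes had 11 of 14 higher, led by TRIM22 (3.13 ± 0.07), and 1 lower, TRIM8 (-0.20 ± 0.05), with a median of 0.85. PARP and DTX genes had 11 of 14 tested (15 listed) higher and 0 lower (median 0.79), with PARP9 at 4.29 ± 0.07 and its partner DTX3L at 3.02 ± 0.04. Ubiquitin-like modifiers had 6 of 11 tested (13 listed) higher and 0 lower (median 0.49), with UBE2L6 (4.13 ± 0.07) and ISG15 (2.99 ± 0.28). Apolipoprotein L genes had 5 of 6 tested (7 listed) higher (median 3.81), with APOL3 from 0.861 ± 0.258 to 58.5 ± 5.42 CPM and APOL6 at 3.94 ± 0.12. Tryptophan, NAD and tetrahydrobiopterin enzymes had 5 of 12 tested (18 listed) higher and 0 lower (median 0.15), GCH1 by 1.53 ± 0.14.

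Complement components and regulators had 12 of 15 tested (19 listed) higher and 1 lower (median 3.09). C1S and C1R, the proteases of the first complement complex, rose from 2.72 ± 0.67 to 124 ± 6.63 CPM and from 2.33 ± 0.365 to 98 ± 7.93 CPM, while CD59, which protects cells from the membrane attack complex, fell by 0.17 ± 0.03. Of 19 chemokines listed only 6 passed the filter, of which 4 rose and CXCL8 fell. CXCL9, CXCL10 and CXCL11 had at most 1 untreated count between their 3 libraries and passed through the libraries with IFNγ. Scramblase and lipid enzymes linked to interferon had 8 of 10 tested (13 listed) higher (median 0.88), with PLSCR1 at 1.61 ± 0.06, and caspases, gasdermins and necroptosis genes 11 of 18 tested (22 listed) higher and 1 lower (median 0.48), with CASP1 at 3.47 ± 0.15 and NLRP1 at -0.29 ± 0.06. Death receptors and ligands had 4 of 10 tested (15 listed) higher and 2 lower (median 0.12). The ligand TNFSF10 went from 0.159 ± 0.107 to 3.97 ± 0.943 CPM. Its log2 fold change was 4.53, and 4.26 to 5.18 when 1 library was left out. The receptor TNFRSF10B, which binds TNFSF10, had one of -0.14 ± 0.03.

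At the cell surface, 11 of 13 tested butyrophilins and B7 ligands (20 listed) rose and 1 fell (median 1.10). CD274, the checkpoint ligand PD-L1, stood at 34.5, 32.1 and 39 CPM and then at 60, 58.1 and 56.9 CPM, a log2 fold change of 0.73 ± 0.07 with no overlap, and BTN3A3 rose by 2.58 ± 0.09. CD276, a B7 family member, fell by 0.20 ± 0.05. Adhesion molecules of leukocyte contact did not follow their best known member. ICAM1 rose from 0.516 ± 0.205 to 57.7 ± 10.5 CPM, but it was the 1 increase among 9 tested (15 listed), and 5 fell (median -0.20), among them F11R (-0.36 ± 0.10), MCAM (-0.29 ± 0.03) and CD58 (-0.27 ± 0.08).

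Short interferon motifs were counted in promoters, taken here as the 250 bases before and 50 bases after each gene's start in RefSeq on GRCh38.p14. Only 1 start per gene was used, so windows at other starts of a gene were not searched. A promoter was at hand for 9962 of the 12160 tested genes. The GAS-like motif searched was TTCNNNGAA, which reads the same on both strands, and the ISRE-like motif was GAAA, then 2 bases of any kind, then GAAA again, on either strand. The sequences show the 250 bases before the start, 5′ to 3′ on the gene's strand, with motif matches in capitals, for genes with a match that stand for each step of the response. IRF1 lies at chr5:132490774-132491023 (minus strand) and ICAM1 at chr19:10270870-10271119 (plus strand), each with a GAS-like match. GBP1 lies at chr1:89065209-89065458 (minus strand), B2M at chr15:44711267-44711516 (plus strand) and SOCS1 at chr16:11256205-11256454 (minus strand), with ISRE-like matches. BST2 at chr19:17405631-17405880 (minus strand) and CD274 at chr9:5450292-5450541 (plus strand) hold both kinds. ROR1 at chr1:63773767-63774016 (plus strand) is 1 of 2 genes with a match among the 24 most lowered genes above.
IRF1: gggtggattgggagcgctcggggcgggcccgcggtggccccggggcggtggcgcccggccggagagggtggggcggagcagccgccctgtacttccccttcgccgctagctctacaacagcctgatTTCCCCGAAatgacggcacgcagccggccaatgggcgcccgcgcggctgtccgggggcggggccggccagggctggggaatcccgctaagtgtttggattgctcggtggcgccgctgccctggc
ICAM1: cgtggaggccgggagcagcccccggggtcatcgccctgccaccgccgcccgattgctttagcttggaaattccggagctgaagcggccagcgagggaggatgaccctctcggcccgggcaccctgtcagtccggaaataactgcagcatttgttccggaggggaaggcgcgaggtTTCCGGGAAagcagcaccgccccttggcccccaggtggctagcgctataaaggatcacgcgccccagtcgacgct
GBP1: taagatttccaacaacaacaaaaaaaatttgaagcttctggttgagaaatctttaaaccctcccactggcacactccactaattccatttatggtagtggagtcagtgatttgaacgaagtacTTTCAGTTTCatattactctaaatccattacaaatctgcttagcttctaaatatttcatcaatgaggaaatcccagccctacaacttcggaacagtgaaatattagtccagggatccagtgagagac
B2M: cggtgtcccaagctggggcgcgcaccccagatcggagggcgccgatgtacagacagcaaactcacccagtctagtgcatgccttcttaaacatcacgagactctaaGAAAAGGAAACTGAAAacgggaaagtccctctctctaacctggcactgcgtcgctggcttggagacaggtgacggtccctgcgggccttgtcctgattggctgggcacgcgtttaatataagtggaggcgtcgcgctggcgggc
SOCS1: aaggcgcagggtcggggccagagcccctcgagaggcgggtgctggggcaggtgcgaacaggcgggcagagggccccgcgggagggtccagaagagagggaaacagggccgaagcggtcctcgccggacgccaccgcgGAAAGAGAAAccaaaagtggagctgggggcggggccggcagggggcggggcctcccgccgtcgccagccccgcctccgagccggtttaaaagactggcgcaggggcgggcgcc
BST2: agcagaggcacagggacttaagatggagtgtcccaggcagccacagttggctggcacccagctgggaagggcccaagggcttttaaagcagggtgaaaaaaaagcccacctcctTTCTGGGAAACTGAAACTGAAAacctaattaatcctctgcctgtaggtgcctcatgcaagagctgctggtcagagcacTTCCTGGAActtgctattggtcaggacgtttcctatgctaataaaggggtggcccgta
CD274: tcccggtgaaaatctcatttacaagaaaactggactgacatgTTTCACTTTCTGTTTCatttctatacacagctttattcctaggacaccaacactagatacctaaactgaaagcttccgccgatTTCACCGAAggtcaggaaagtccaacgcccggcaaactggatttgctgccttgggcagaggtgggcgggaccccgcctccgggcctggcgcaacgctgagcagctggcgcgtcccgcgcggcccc
ROR1: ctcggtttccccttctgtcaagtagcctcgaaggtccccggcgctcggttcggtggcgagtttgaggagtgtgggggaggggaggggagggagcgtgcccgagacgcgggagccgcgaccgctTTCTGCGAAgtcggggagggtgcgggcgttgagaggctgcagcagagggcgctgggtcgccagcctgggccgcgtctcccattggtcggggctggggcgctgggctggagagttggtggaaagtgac

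In these windows the first base of the GAS-like match lay 124 bases before the start in IRF1, 75 in ICAM1 and 127 in ROR1. The ISRE-like match began 127 bases before the start in GBP1 and 113 in SOCS1, and B2M had a pair of overlapping ones from 144. In BST2 a GAS-like match at 136 ran into overlapping ISRE-like ones at 130 and 124, with a further GAS-like match at 58. CD274 had overlapping ISRE-like matches at 208 and 202 and a GAS-like one at 125. A match is a description of letters and not a site shown to be bound.

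The share of promoters with a match followed the size of the increase. An ISRE-like match was found in 34.6% of the promoters of genes raised at least 8-fold (78 with a promoter, of 106), in 24.0% of those raised 2-fold to 8-fold (154 of 204) and in 4.51% of those raised less, against 2.95% over all tested genes with a promoter. GAS-like matches were in 20.5%, 10.4% and 8.87% of these promoters, against 6.34%. Among genes lowered at least 2-fold, 57 of 74 had a promoter, and 2 of these held a GAS-like and 1 an ISRE-like match (3.51% and 1.75%). Genes lowered by less had 4.59% and 1.66%, and genes not called 5.99% and 2.11%. Over all 27305 promoters of the reference table the shares were 7.88% and 3.65%. Of the 24 most lowered genes above, 18 had a promoter and 2 of them a match, IL24 (ISRE-like) and ROR1.

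**Figure D5:**
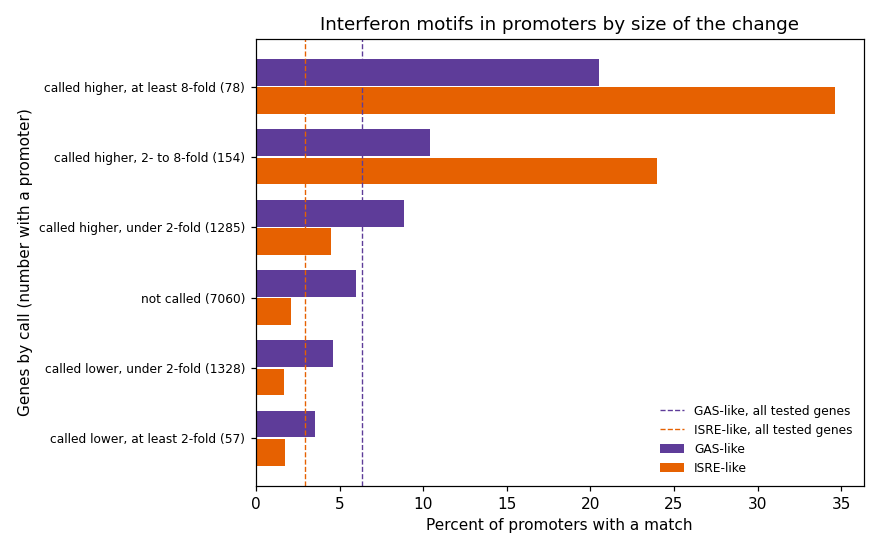
Bars give the percent of promoters that hold a GAS-like (purple) or ISRE-like (orange) match, by direction and size of the IFNγ effect, with the number of promoters in brackets and dashed lines at the shares over all tested genes. ISRE-like matches go from 34.6% in genes raised at least 8-fold to 1.75% in genes lowered at least 2-fold, which is 1 gene of 57.

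The same cytokine effect was measured in cells irradiated with 20 Gy, combination against radiation alone. The groups contrasted are other libraries, but all 12 libraries were in 1 fit. The filter and the estimate of spread are therefore shared, and the 2 comparisons are not fully independent. There 1761 genes rose (14.5%) and 1509 fell (12.4%), and for 289 genes (2.38%) the effect of IFNγ differed between irradiated and unirradiated cells. Of the 310 genes raised at least 2-fold, 300 were also called higher in irradiated cells, and the median log2 fold change was 1.99 against 2.14 (2.13 with genes from 0 counts at their bound). Of the 74 lowered at least 2-fold, 40 were also called lower and 21 by at least 2-fold, with a median of -0.74 against -1.19. These genes were chosen for their change in unirradiated cells, so the medians are not independent of the choice. The difference itself was called for 39 of the 310 (38 of them smaller in irradiated cells) and for 3 of the 74, all smaller. The change used for the choice also enters the difference. The choice thus favours smaller effects in irradiated cells, here and for the 24 genes that follow. All 24 of the most lowered genes above the level cut were called lower in irradiated cells too, with log2 fold changes from -1.32 to -0.32 and a median of -0.90 against -1.10. The number of genes with a called difference was 136 with DESeq2, 161 without radiation replicate 2 and 179 without combination replicate 2.

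DNA replication genes had 12 of 26 higher and 1 lower (median 0.13), but 5 higher with library totals and 7 without IFNγ replicate 1. RRM2, a subunit of ribonucleotide reductase, rose by 0.26 ± 0.03 and MCM3, of the replicative helicase, by 0.18 ± 0.04. Mitosis genes had 4 of 22 higher and 0 lower (median 0.03), which turned to 0 higher and 4 lower (median -0.02) with library totals, and 2 or 1 were higher with the 6 libraries alone, with DESeq2, without untreated replicate 3 (2 each) or without IFNγ replicate 1 (1). With TMM the share of increases among mitosis genes was close to the 15.0% of the whole tested set. MKI67, a marker of cycling cells, went from 895 ± 12.4 to 964 ± 29.7 CPM, a call lost with library totals. Of 20 p53 targets 7 fell and 1 rose (median -0.09), with 4 lower without untreated replicate 1. CDKN1A, the cell cycle inhibitor p21, stood at 118, 103 and 115 CPM and then at 86.7, 92.3 and 92 CPM, a log2 fold change of -0.31 ± 0.04, and ZMAT3 fell by 0.42 ± 0.04.

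Genes of cystine, glutathione and ferroptosis, an iron-dependent form of cell death, went both ways, with 7 of 21 tested (23 listed) lower and 5 higher (median -0.03). The increases numbered 3 with library totals, with DESeq2 and without untreated replicate 1, untreated replicate 3, IFNγ replicate 2 or IFNγ replicate 3. SLC7A11, the cystine transporter, stood at 96.8, 114 and 114 CPM and then at 71.4, 82.4 and 81.1 CPM (-0.46 ± 0.06), and GPX4, which repairs lipid peroxides, fell by 0.28 ± 0.05, with no overlap in either. SLC3A2, the partner chain of SLC7A11, had a log2 fold change of -0.12 ± 0.04 that was not called with DESeq2, with all genes of at least 1 count, without untreated replicate 1 or without IFNγ replicate 3. GCLM, a subunit of the enzyme that makes the glutathione precursor, rose from 86.3 ± 7.2 to 123 ± 3.7 CPM, in contrast to HMOX1. The ACSL4 change of 0.12 ± 0.04 was not called with library totals, DESeq2 or without untreated replicate 1, untreated replicate 3, IFNγ replicate 2 or IFNγ replicate 3.

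The 16 mesenchymal markers summed to 10100 to 10300 CPM in untreated and 9750 to 9800 CPM in IFNγ libraries, with VIM alone at 5187 ± 131.5 and 5490 ± 63.0 CPM. Of the 16, 3 were under 1 CPM, taken here and below as the mean over the 6 libraries. Of 14 tested 2 rose and 5 fell. Epithelial markers summed to 1.49 to 2.63 CPM with 8 of 9 under 1 CPM, and 0 of 1 tested was called. Endothelial markers summed to 47.7 to 57.3 CPM untreated and 36.2 to 38 CPM with IFNγ, and 1 of 3 tested fell, TIE1 (-0.52 ± 0.07), with 7 of 8 under 1 CPM. Leukocyte markers summed to 182 to 195 and 184 to 187 CPM, from CD68 (0.18 ± 0.04) and NCAM1 (-0.55 ± 0.06), with 13 of 16 under 1 CPM. At 0 counts in all 6 libraries were 1 epithelial, 1 endothelial, 2 leukocyte and 0 mesenchymal markers. Whether such cells had a part in any decrease was not tested.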

How the data were processed

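RNA of 12 HT1080 libraries was measured by RNA sequencing, and the 3 IFNγ and 3 untreated libraries were compared. Per the labels' protocols, ribosomal RNA was removed and stranded total RNA libraries were sequenced in pairs on a HiSeq instrument, while the series' design text names an mRNA kit. The authors deposited raw counts per gene, which are whole numbers with no normalization. The submitters' processing notes name FastQC 0.11.3, TopHat2 2.0.13, Cufflinks, Cuffdiff 2.2.1 and hg19. How genes were counted, with which annotation and on which strand, is not given in the sources used here, so overlapping, antisense and near-identical genes are uncertain. All 19293 genes are typed protein coding, and 27 carry symbols that a spreadsheet turned into dates. Columns were matched to libraries by title, with 0 left unmatched.

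Counts were tested with edgeR 4.0.16 in R 4.3.3 (filterByExpr, TMM, robust quasi-likelihood F test) in 1 fit of all 12 libraries, with Benjamini-Hochberg adjustment over 12160 genes and a threshold of 0.05. The genes left out held 0.0678% of counts. The common biological coefficient of variation was 2.71%. Standard errors come from the fitted model. The tests were also run on counts simulated with the spread of this model and with changes balanced between the directions. That run cannot show how the tests behave where large increases outnumber large decreases. The effect in irradiated cells and its difference are contrasts of the same fit. Replicates were not copies: over the 6 replicate pairs chi-square divided by its degrees of freedom was 1.26 to 2.67. Groups at 0 counts were set to a floor of 3 counts per group, and ratios from 1 to 3 counts have exact 95% intervals.

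Named genes were first the 12 called genes raised most and the 24 lowered most, with no overlap between groups and a mean log2 CPM of at least 2. Without these conditions, the 10 called genes of largest gain and the 10 of largest loss of CPM were named. Also without them, up to 3 called genes per direction in each of 52 lists, the 8 highest from 0 counts and a fixed set of pathway genes were named. Members and lists were chosen with earlier results of these data known. Alternatives were library totals, RLE size factors, no filter, the 6 libraries alone, DESeq2 1.42.0, a replicate block and leaving out each library. Leaving out radiation or combination libraries was chosen after seeing the data. Promoters came from RefSeq, matched by symbol or gene ID. Some named genes are not reported here.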

Additional observations from a re-analysis of the deposited data

Results flagged for a closer look

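The IFNγ effect differed between irradiated and unirradiated cells for 5 of 43 genes, by the edgeR test of the difference itself. The 43 were named by the size of their change or by 0 untreated counts. Over all 12160 tested genes the difference was called for 289 (2.38%). Differences are irradiated minus unirradiated on the log2 scale. The genes were chosen from the unirradiated libraries, whose effect enters the difference. The choice therefore favours a smaller effect in irradiated cells, and the adjusted p-values do not allow for it. APOL3 rose by a smaller fold in irradiated cells, with a difference of -1.52 (adjusted p = 0.00163) and log2 fold changes of 4.54 against 6.06. The complement protease C1S also rose by a smaller fold, with a difference of -0.87 (adjusted p = 0.00287). Both stood higher with radiation alone than untreated, APOL3 at 2.5 against 0.861 CPM and C1S at 8.93 against 2.72 CPM. With IFNγ, APOL3 reached 58.7 CPM in irradiated and 58.5 CPM in unirradiated cells, and C1S reached 221 and 124 CPM. Their levels after IFNγ were thus not lower in irradiated cells. The proteoglycan VCAN fell less in irradiated cells, with a difference of 0.51 (adjusted p = 2.58e-05) and log2 fold changes of -0.55 against -1.06. OSBP2 fell less by 0.67 (adjusted p = 0.000835), and the integrin chain ITGA10 fell less by 0.49 (adjusted p = 0.00647). The ITGA10 difference was lost without IFNγ replicate 1, where it was 0.41 with an adjusted p of 0.0544. All of these genes were called in the same direction in both settings.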

How the results depend on the processing

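Of 270 named genes, 229 kept their direction and their side of the threshold in every alternative run on them (12 planned, 6 added after seeing the data), and 41 did not. With library totals in place of TMM 2717 genes were called lower, against 1715. DESeq2 called 2596 genes, 1399 higher and 1197 lower, and a fit of the 6 libraries alone called 3240. All genes with at least 1 count gave 3502 calls and RLE size factors 3547. Leaving out 1 untreated or IFNγ library gave 2878 to 3306 calls, 1455 to 1785 higher and 1423 to 1521 lower, with 295 to 323 at least 2-fold higher and 63 to 84 at least 2-fold lower. Genes whose IFNγ effect differed in irradiated cells numbered 289, 136 with DESeq2, and 161 to 332 when any 1 library was left out, the lowest without radiation replicate 2. PSMB6, at -0.01, turned to 0.005193 with all genes of at least 1 count and ran from -0.04162 to 0.0198 when 1 library was left out (0.01797 and 0.00548 without untreated replicates 1 and 2), and it was never called. The cause of these changes was not tested.

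Replicate numbers gave no clear sign of pairing: deviations of same-numbered untreated and IFNγ libraries correlated at 0.101, -0.0649 and 0.104, and not every library correlated best with its own number. With 3 libraries per group, such correlations cannot decide whether same-numbered libraries were paired. With the replicate number as a block 3525 genes were called, 1828 higher and 1697 lower, with 308 and 70 at least 2-fold, and 276 differed in irradiated cells. Depth limits the genes under 1 CPM, where a few counts set the fold change.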
